A study of Mus musculus with 7 samples.

Results

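Matrix metalloproteases, secreted Adamts proteases and their Timp inhibitors cut, or protect from cutting, the proteins of basement membranes and of the matrix around vessels. Expression of these genes was measured in vascular fragments of the mouse brain 4 h after an injection into the cerebral ventricles. The members were all genes whose symbol is Mmp, Adamts or Timp followed by a number, with an optional a or b at the end. Each gene was read from its brightest probe set that the platform annotation gives 1 symbol. This left 44 genes, made up of 22 Mmp, 18 Adamts and 4 Timp genes, of 22180 genes named that way on the array.

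Matrix metalloproteases (Mmp genes) are zinc enzymes that are made as inactive precursors and need another protease to remove their propeptide. Adamts proteases carry thrombospondin motifs beside the protease domain, and many of them cut proteoglycans such as versican and brevican. The Timp proteins bind the active site of these enzymes, and in brain vessels the balance of both sides is known for its part in the stability of the basement membrane and of the blood-brain barrier.

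The study compared PDGF-CC with phosphate-buffered saline (PBS), both given by intracerebroventricular (ICV) injection to female mice, 4 h before they were killed. PDGF-CC is a growth factor that activates the receptor PDGFR-alpha. The mice are C57BL/6N aged 12 weeks in the series text, and C57BL/6 adults in the sample labels. Both groups carry the injection itself, so the comparison leaves out any response to surgery and fluid. There were 4 PDGF-CC arrays and 3 PBS arrays, each from its own sample. Whether each sample is a separate mouse, a pool of its own or part of a shared pool is not given in the sources used here. If the samples shared a pool, the error behind each p-value would be technical rather than biological. The numbers at the end of the sample descriptions are 1, 2, 5 and 6 for PDGF-CC arrays 1 to 4, and 3, 4 and 7 for PBS arrays 1 to 3. What they stand for is not stated. Among numbers 5 to 7 the only PBS array is PBS array 3, so every difference given within these numbers rests on 1 PBS array.

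All values are log2 expression values, and all differences are PDGF-CC minus PBS on that scale. A probe set was tested if its mean lay above 4.145, the 30th percentile of the probe sets with a gene symbol, which left 17734. The labelled source was borne out by brain endothelial markers, of which 9 of 9 were above this limit, with a mean level of 10.92 to 11.14 over the arrays. Markers of other cells passed the limit too. Among them 9 of 9 pericyte, 7 of 7 microglial, 7 of 7 perivascular fibroblast, 8 of 8 choroid plexus and 7 of 9 neutrophil markers were above it. So were 6 of 6 smooth muscle, 6 of 6 astrocyte, 5 of 5 border-associated macrophage, 5 of 6 oligodendrocyte and 5 of 6 neuron markers. As the limit is the 30th percentile, most probe sets with a symbol pass it. A pass alone does not show that a cell type was present. With bulk RNA, fewer cells of a type and less RNA per cell cannot be told apart. The small number of arrays limits how precisely any difference is known.

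None of the members differed between PDGF-CC and PBS beyond the threshold. Of the 44 members, 30 were tested and 14 lay under the limit. By limma with Benjamini-Hochberg adjustment over all 17734 probe sets, 0 of 30 members had an adjusted p under 0.05, and the share over all probe sets was 0%, or 0 of 17734. The members' adjusted p ran from 0.769 to 0.986. The 95% interval of the difference lay within 1.5-fold in both directions for 25 of the 30, beside 88.3% of all tested probe sets, and within 2-fold for 28. Timp1 and Mmp8 had the intervals that reached beyond 2-fold.

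The differences ran from -0.49 for Timp1 to +0.23 for Mmp11, and 17 were negative and 13 positive. Their median was -0.02, beside -0.0038 over all tested probe sets, of which 51.6% were negative. At an unadjusted p under 0.05 there was 1 member that was higher, of 30, where 2.63% of all probe sets were, and 0 that were lower, where 3.41% were. Every PDGF-CC array lay above every PBS array for 1 member, against 1.80% of all probe sets, and below for 0, against 2.50%. That member was Mmp11 in both counts.

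**Figure D1:**
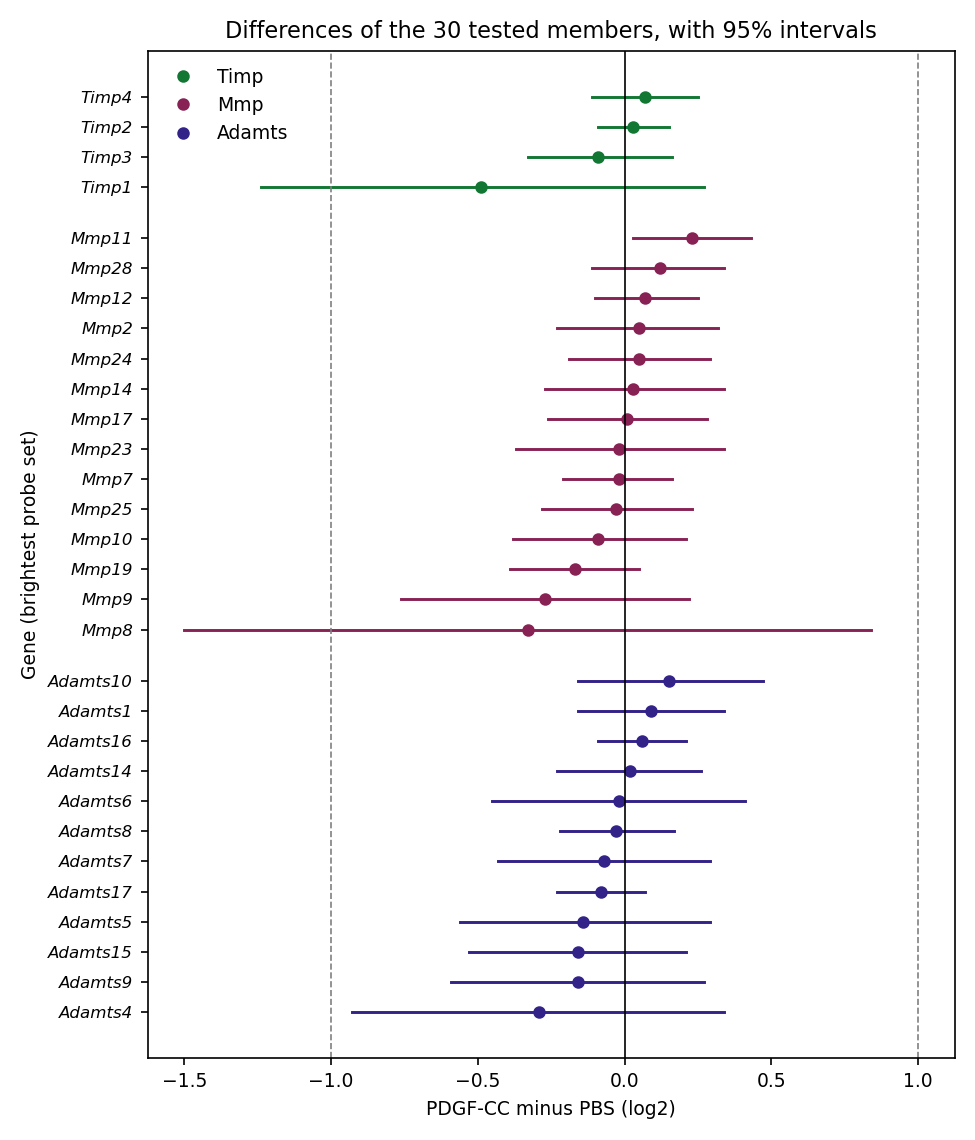
Difference between PDGF-CC and PBS (x axis, log2) for each of the 30 tested members (y axis), with the 95% interval of limma as a line and the families in colour. Dashed lines mark a 2-fold difference. The intervals of Timp1 and Mmp8 cross a dashed line, and the interval of Mmp11, from 0.03 to 0.43, is the one that does not reach 0.

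The inhibitors were tested in full. The median difference of the 4 Timp genes was -0.03, and none had an unadjusted p below 0.171. Timp1, an inducible inhibitor of most Mmp enzymes, was at 7.25, 7.28, 7.10 and 6.10 in PDGF-CC arrays 1 to 4 and at 7.26, 7.84 and 7.16 in PBS arrays 1 to 3. PDGF-CC array 4 stood low and PBS array 2 high, and the other 5 arrays lay between 7.10 and 7.28, so the groups overlapped. The difference was -0.49 ± 0.320 (SE, n = 4 and 3, adjusted p = 0.770 by limma), with a 95% interval from -1.24 to 0.27. It was -0.21 without PDGF-CC array 4.

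Timp3, which binds to the matrix and also inhibits Adamts enzymes and the sheddase Adam17, was at 11.67, 11.90, 12.01 and 11.96 after PDGF-CC. In PBS arrays 1 to 3 it was at 11.96, 11.84 and 12.12. PDGF-CC array 1 was the lowest of the 7, and the remaining PDGF-CC values lay inside the PBS range. The difference of Timp3 was -0.09 ± 0.103 (SE, adjusted p = 0.837 by limma).

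Timp2, which inhibits Mmp2 and, bound to Mmp14, also helps to activate it, was nearly the same in all arrays. The PDGF-CC values of Timp2 were 9.48, 9.51, 9.51 and 9.59, and the PBS values 9.51, 9.44 and 9.51. Its difference of 0.03 ± 0.0511 had the smallest standard error of the members, and its 95% interval ran from -0.09 to 0.15. Timp4, the family member with the most restricted expression, was at 5.63, 5.60, 5.88 and 5.63 with PDGF-CC and at 5.63, 5.58 and 5.63 with PBS. PDGF-CC array 3 stood above the other 6, and the difference was 0.07 ± 0.0776.

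Equal values in several arrays were common, as those of Timp2 and Timp4 show. Exactly the same deposited value was held by 3 or more arrays for 16 of the 44 members, and for 12 of the 30 tested ones, while 37.4% of all tested probe sets had such values. The membrane-anchored protease gene Mmp17 and the protease gene Adamts16 had 5 equal values of 7, and an SD of 0.00 between the PBS arrays. Equal values narrow the spread on which a standard error rests, and their origin was not tested.

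**Figure D2:**
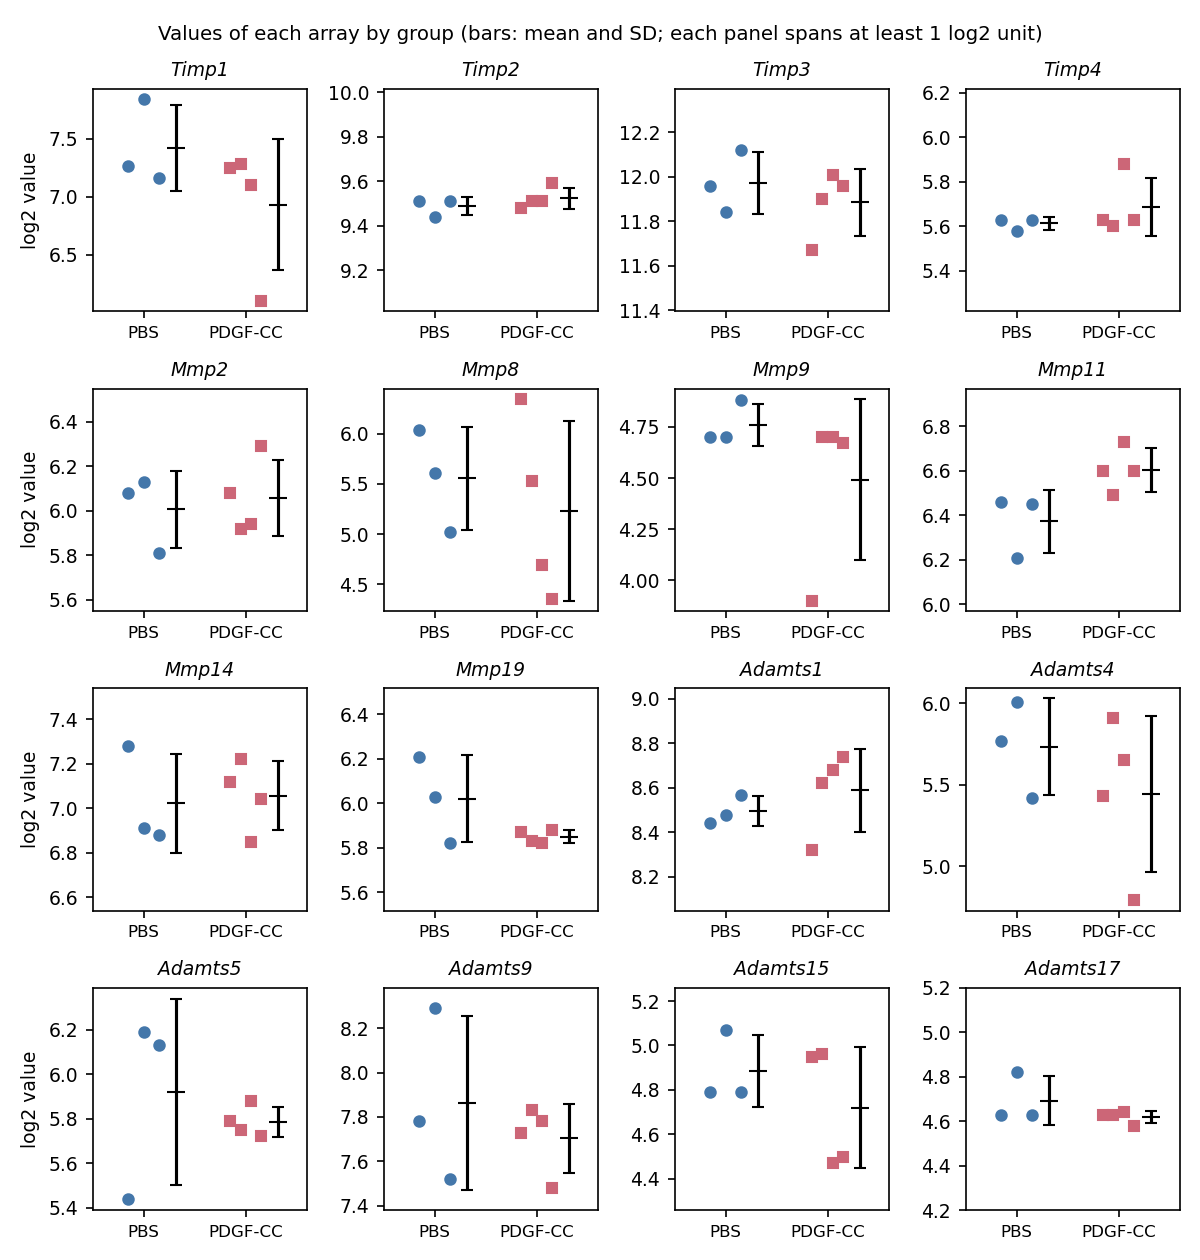
Log2 value (y axis) of each array for 16 members, PBS as circles and PDGF-CC as squares, with mean and SD beside each group and a y axis of its own in each panel. The groups overlap in every panel other than Mmp11, where the PDGF-CC arrays lie between 6.49 and 6.73 and the PBS arrays between 6.21 and 6.46.

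Mmp11 encodes stromelysin-3, which is activated inside the cell by furin. It was at 6.60, 6.49, 6.73 and 6.60 in PDGF-CC arrays 1 to 4 and at 6.46, 6.21 and 6.45 in PBS arrays 1 to 3. The groups did not overlap, but the gap between them was narrow, from 6.46 to 6.49. The difference was 0.23 ± 0.0864 (SE, n = 4 and 3, unadjusted p = 0.0324, adjusted p = 0.769 by limma), or 1.17-fold. Arrays numbered 1 to 4 gave 0.21, and those numbered 5 to 7, with 1 PBS array, gave 0.22. Without PBS array 2 the difference was 0.15. A dimmer probe set of the same gene had a difference of 0.17, with overlapping groups. Adjusted p for Mmp11 was 0.561 or more in every alternative run.

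The gelatinases and their activator on the cell surface did not separate the groups. Mmp2, gelatinase A, which degrades type IV collagen, was at 6.08, 5.92, 5.94 and 6.29 with PDGF-CC and at 6.08, 6.13 and 5.81 with PBS. The PDGF-CC values spanned most of the PBS range, and the difference was 0.05 ± 0.116. Mmp14, the membrane-type protease that activates pro-Mmp2, was at 7.12, 7.22, 6.85 and 7.04 against 7.28, 6.91 and 6.88 in PBS. The highest and the second lowest value of Mmp14 were both PBS values, and its difference was 0.03 ± 0.128.

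Mmp9, gelatinase B, which neutrophils store in granules and vessel cells can induce, had 1 low array. Its values were 3.90, 4.70, 4.70 and 4.67 after PDGF-CC and 4.70, 4.70 and 4.88 after PBS. PDGF-CC array 1 lay below the limit of 4.145, and 4 arrays held the same value of 4.70. The difference of -0.27 ± 0.206 (SE, adjusted p = 0.779 by limma) was -0.07 without PDGF-CC array 1.

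After Mmp11, the smallest p among the Mmp genes belonged to Mmp19, which degrades basement membrane proteins, then to Mmp9 and to Mmp28, known as epilysin. Mmp19 was at 5.87, 5.83, 5.82 and 5.88 with PDGF-CC, a range much narrower than that of PBS, with 6.21, 6.03 and 5.82. PBS array 3 shared the level of the PDGF-CC arrays, and the difference was -0.17 ± 0.0920 (adjusted p = 0.769 by limma), or -0.07 without PBS array 1. Mmp28 was at 5.90, 5.76, 5.76 and 5.76 with PDGF-CC and at 5.68, 5.49 and 5.88 with PBS, so the groups overlapped. Its difference was 0.12 ± 0.0946, and it moved to 0.02 when PBS array 2 was left out and to 0.21 when PBS array 3 was.

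The remaining tested membrane-type and related genes were Mmp17, Mmp24, Mmp25 and Mmp23. Their differences were 0.01 for Mmp17, 0.05 for Mmp24, -0.03 for Mmp25 and -0.02 for Mmp23. All 4 intervals lay within 1.5-fold, the widest being that of Mmp23, from -0.37 to 0.34.

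Mmp8, the collagenase of neutrophils, had the widest range of the tested members, and its values split by description number. With PDGF-CC it was at 6.35, 5.53, 4.69 and 4.35, and with PBS at 6.04, 5.61 and 5.02. PDGF-CC arrays 1 and 4 were the highest and the lowest of the 7, and the PBS values lay inside the PDGF-CC range. The difference was -0.33 ± 0.495 (adjusted p = 0.874 by limma), with a 95% interval from -1.50 to 0.84. It was -0.70 without PDGF-CC array 1 and -0.03 without PDGF-CC array 4. With the description number as a covariate it was -0.71 (unadjusted p = 0.00361, adjusted p = 0.571 by limma). That was the most negative of the alternatives with no array left out, which ran from -0.71 to -0.03. Over all alternatives the adjusted p ran from 0.571 to 0.990. Among arrays numbered 1 to 4 the difference was 0.12, and among those numbered 5 to 7 it was -0.50.

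All arrays with description numbers 5 to 7 lay below all arrays with numbers 1 to 4 for Mmp8, at 4.35 to 5.02 against 5.53 to 6.35. This contrast was added after the values had been seen. With the groups accounted for, the later numbers differed from the earlier ones by -1.18 ± 0.252 (SE, n = 3 and 4, unadjusted p = 0.00322, adjusted p = 0.417 by limma). Of all tested probe sets, 0.00564% passed the adjusted threshold in this contrast, and 0 of 30 members did. Members with every array numbered 5 to 7 below every array numbered 1 to 4 were 2 of 30, against 1.99% of all probe sets, and members with every such array above were 1 of 30, against 3.37%. These were Mmp8 and Timp1 on the lower side and Timp3 on the higher side. The gap was narrow for Timp1, with the later arrays at 7.16 or less and the earlier ones at 7.25 or more. For Timp3 the nearest arrays of the earlier and later numbers were both at 11.96 after rounding. Timp1 differed between the later and earlier numbers by -0.55 ± 0.267 and Timp3 by 0.21 ± 0.0729, both with an adjusted p above 0.5 by limma.

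Neutrophil markers other than Mmp8 and Mmp9 were read beside these values. The mean level of the 9 listed markers was 6.49, 6.41, 6.33 and 5.66 in PDGF-CC arrays 1 to 4 and 6.76, 6.54 and 5.96 in PBS arrays 1 to 3. The arrays numbered 6 and 7 were the lowest in this mean, and the arrays numbered 5 to 7 spanned 5.66 to 6.33, against 6.41 to 6.76 for numbers 1 to 4. S100a8, a granulocyte alarmin gene named after its values were seen, was at 8.57, 8.36, 8.26 and 6.35 with PDGF-CC and at 9.47, 9.26 and 7.14 with PBS. Of the 9 markers it alone had every array numbered 5 to 7 below every array numbered 1 to 4. The other markers, S100a9 and Cxcr2 among them, did not separate the numbers. For S100a9 the lowest earlier array and the highest later array were both at 8.82. With the groups accounted for, the later numbers differed from the earlier ones by -1.28 for S100a9 and -0.68 for Cxcr2. The difference was -0.49 for Retnlg, -0.31 for Lcn2, -0.09 for Csf3r and -0.04 for Ltf. Csf3r had means of 7.48 for numbers 1 to 4 and 7.41 for 5 to 7. The granule protein genes Ngp and Camp were under the limit of 4.145 as means. Of the 7 tested markers, 5 were negative and 2 positive between the groups, with a median of -0.47 and 0 past the adjusted threshold. The part of neutrophil RNA in the values of Mmp8 was not tested.

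**Figure D3:**
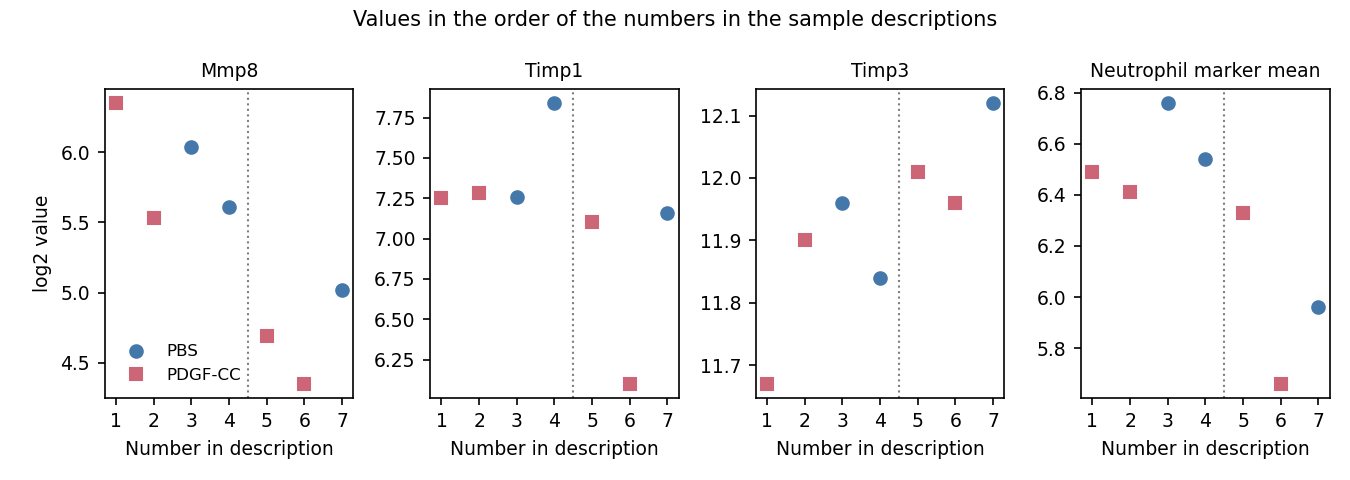
Log2 values (y axis) of Mmp8, Timp1, Timp3 and the mean of 9 neutrophil markers, plotted against the number in the sample description (x axis), with PBS as circles and PDGF-CC as squares. A dotted line divides numbers 1 to 4 from 5 to 7, and Mmp8 lies at 5.53 or more to its left and at 5.02 or less to its right.

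Many Mmp genes form a cluster on mouse chromosome 9. RefSeq promoters on the build GRCm38.p6, spanning 250 bases before to 50 after the annotated start, were matched by symbol for 30 of the 44 members. The other 14 members were not searched. For members the search skipped a single chromosome outside the cluster, which the shares over all promoters given below include. Of the 30 members, 10 lie together on chromosome 9, between positions 7272264 and 7692390. They are the collagenase genes Mmp1a, Mmp1b, Mmp8 and Mmp13, the stromelysin genes Mmp3 and Mmp10, the matrilysin gene Mmp7, the macrophage elastase gene Mmp12, the enamel protease gene Mmp20, and Mmp27. On the array 4 of these 10 were above the limit and tested, namely Mmp7, Mmp8, Mmp10 and Mmp12, and 6 were not.

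Growth factors are known to induce several of these genes through AP-1, the dimer of Fos and Jun proteins. Its sequence was searched as TGANTCA, which reads the same on both strands. It occurs in 7.81% of the 32851 promoters in the table, and in the promoters of 8 of the 30 members, all of them in the chromosome 9 cluster. The 100 bases before the start of these 8 genes are shown, 5′ to 3′ on the strand of the gene, because they are the members with a match to the factor whose genes are described next. Capitals mark the AP-1 letters.
Mmp13: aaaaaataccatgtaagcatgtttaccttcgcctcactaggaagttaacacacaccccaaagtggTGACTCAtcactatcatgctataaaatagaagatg
Mmp12: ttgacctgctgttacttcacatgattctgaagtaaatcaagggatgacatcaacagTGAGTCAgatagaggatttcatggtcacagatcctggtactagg
Mmp1b: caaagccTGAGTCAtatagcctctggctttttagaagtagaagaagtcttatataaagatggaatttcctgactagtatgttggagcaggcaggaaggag
Mmp3: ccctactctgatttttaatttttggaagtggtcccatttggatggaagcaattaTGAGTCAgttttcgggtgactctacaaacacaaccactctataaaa
Mmp1a: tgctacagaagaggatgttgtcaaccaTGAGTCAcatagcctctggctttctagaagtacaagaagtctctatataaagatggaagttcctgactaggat
Mmp10: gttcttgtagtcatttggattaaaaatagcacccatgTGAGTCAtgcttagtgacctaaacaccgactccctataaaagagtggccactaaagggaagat
Mmp20: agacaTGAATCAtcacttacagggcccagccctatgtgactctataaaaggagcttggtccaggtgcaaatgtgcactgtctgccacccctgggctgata
Mmp7: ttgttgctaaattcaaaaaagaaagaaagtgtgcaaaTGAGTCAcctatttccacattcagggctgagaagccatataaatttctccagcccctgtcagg
In that order they lie at chr9:7272414-7272513, chr9:7347274-7347373, chr9:7388027-7388126 on the minus strand, chr9:7445722-7445821, chr9:7464041-7464140, chr9:7502242-7502341, chr9:7628131-7628230 and chr9:7691990-7692089, all but Mmp1b on the plus strand. Counted back from the start, the match begins at -35 in Mmp13, at -44 in Mmp12, at -46 in Mmp3, at -63 in both Mmp10 and Mmp7, at -73 in Mmp1a, at -93 in Mmp1b and at -95 in Mmp20. The letters read TGAGTCA in all but Mmp13, with TGACTCA, and Mmp20, with TGAATCA.

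The TATA letters TATAAA, read on the strand of the gene, were present in the table's promoters of all 8 as well, and of Mmp21 and Adamts1, or 10 of 30 members, against 8.32% of all promoters. In Mmp12 they follow the annotated start. Genes with more than 1 annotated start, such as Mmp7 and Mmp12, were counted if any of their promoters matched.

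GC box letters, GGGCGG on either strand, are in 35.7% of all promoters and in those of 16 of the 30 members. None of these 16 held the AP-1 letters, and Adamts1 held the GC box and TATA letters both. The stretches of the 3 members on which the values above turn are given for contrast, in the same window, with GC box letters in capitals.
Mmp11: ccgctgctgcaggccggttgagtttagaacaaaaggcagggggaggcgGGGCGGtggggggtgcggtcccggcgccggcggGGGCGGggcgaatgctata
Timp1: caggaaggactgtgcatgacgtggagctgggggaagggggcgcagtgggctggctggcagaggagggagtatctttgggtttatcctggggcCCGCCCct
Mmp8: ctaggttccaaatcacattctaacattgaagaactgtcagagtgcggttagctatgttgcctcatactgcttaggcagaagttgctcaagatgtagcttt
They lie at chr10:75932503-75932602 (minus strand), chrX:20870066-20870165 and chr9:7558329-7558428 (both plus strand). Mmp8 lies inside the cluster, but its window held neither the AP-1 nor the GC box letters. A match of letters is a description and does not show binding.

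Of 10 measured genes in a list of AP-1 and Ets factors 9 were positive, with a median of 0.32 and 0 past the adjusted threshold. At an unadjusted p under 0.05, 5 of the 10 were higher, where 2.63% of all tested probe sets were. Junb, a Jun family factor, was at 8.49, 8.05, 8.03 and 7.94 with PDGF-CC and at 7.54, 7.74 and 7.59 with PBS. The groups did not overlap, and the difference was 0.50 ± 0.138 (adjusted p = 0.769 by limma). Jund differed by 0.61 ± 0.180 and Fos by 0.69 ± 0.207, again without overlap and at the same adjusted p. For Fos, arrays numbered 1 to 4 gave a difference of 1.04, and those numbered 5 to 7 gave 0.33. The AP-1 genes were not all alike, as Fosl2 and Jun, named after their values were seen, show. Fosl2 had a difference of -0.0026 ± 0.118. The groups overlapped for Jun, with a difference of 0.24 ± 0.137 that was 0.48 among arrays numbered 1 to 4 and -0.10 among the later ones.

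The 3 tested Mmp genes with AP-1 letters had differences of 0.07 ± 0.0724 for Mmp12, -0.02 ± 0.0797 for Mmp7 and -0.09 ± 0.125 for Mmp10. Their 95% intervals lay within 1.5-fold in both directions, with the lowest bound at -0.38 for Mmp10 and the highest at 0.25 for Mmp12. The 5 others were under the limit and were not tested. Of these, Mmp3, stromelysin-1, was at 3.69, 3.60, 3.47 and 3.72 with PDGF-CC and at 3.54, 4.27 and 3.65 with PBS. PBS array 2 alone stood above 4, and the difference of -0.20 was not tested. For Mmp1a, Mmp1b, Mmp13 and Mmp20 the untested differences were 0.05, 0.12, 0.01 and 0.04.

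**Figure D4:**
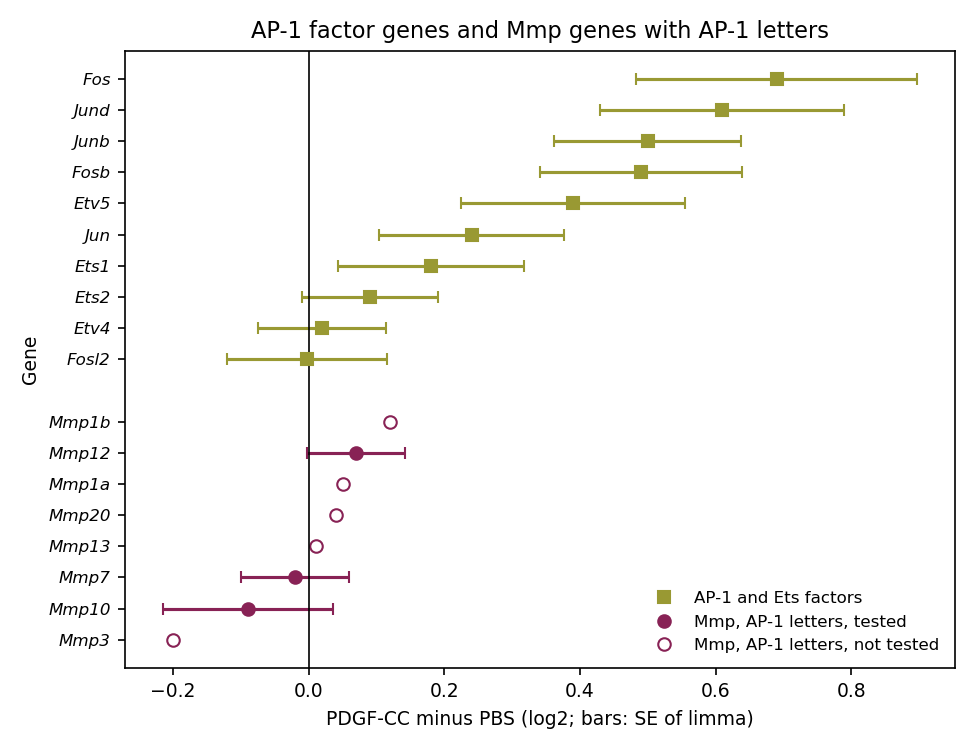
Difference between PDGF-CC and PBS (x axis, log2, bars for limma's SE) for the 10 measured AP-1 and Ets factor genes (squares) and the 8 Mmp genes with AP-1 letters in their promoters (circles, open where not tested). The factor genes run from -0.0026 to 0.69, and the 8 Mmp genes from -0.20 to 0.12.

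Adamts genes had a median difference of -0.05 over the 12 tested, with 8 negative and 4 positive. The largest difference and the widest interval belonged to Adamts4, an aggrecanase that cuts brevican and versican. It was at 5.43, 5.91, 5.65 and 4.79 with PDGF-CC and at 5.77, 6.01 and 5.42 with PBS. PDGF-CC array 4, which was also lowest in Timp1 and Mmp8, was lowest here. The difference of -0.29 ± 0.269 (adjusted p = 0.802 by limma) was -0.07 without that array.

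The other proteoglycan-cutting members showed differences of either sign. Adamts1, an inducible versicanase, was at 8.32, 8.62, 8.68 and 8.74 with PDGF-CC and at 8.44, 8.48 and 8.57 with PBS. PDGF-CC array 1 lay below all PBS arrays and the other 3 lay above them, and the difference was 0.09 ± 0.106 (0.18 without PDGF-CC array 1). Adamts5, the other main aggrecanase, was at 5.79, 5.75, 5.88 and 5.72 against 5.44, 6.19 and 6.13 in PBS. Its PDGF-CC values lay together inside the wider PBS range, and the difference of -0.14 ± 0.179 was -0.38 without PBS array 1 and -0.00035 without PBS array 2.

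Adamts9, which cuts versican and is found in endothelium, was at 7.73, 7.83, 7.78 and 7.48 with PDGF-CC and at 7.78, 8.29 and 7.52 with PBS. PBS array 2 stood above the rest, and the difference of -0.16 ± 0.183 was 0.06 without it. Adamts15 was at 4.95, 4.96, 4.47 and 4.50 with PDGF-CC and at 4.79, 5.07 and 4.79 with PBS. The PDGF-CC arrays split into a pair numbered 1 and 2 and a lower pair numbered 5 and 6, and the difference was -0.16 ± 0.157, at 0.03 within numbers 1 to 4 and -0.31 within 5 to 7. Adamts8 had a difference of -0.03 ± 0.0835.

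Adamts10 and Adamts6, which act on fibrillin microfibrils, had differences of 0.15 ± 0.133 and -0.02 ± 0.183. Adamts10 was at 6.89, 6.73, 6.73 and 6.75 with PDGF-CC and at 6.73, 6.29 and 6.85 with PBS. PBS array 2 was low, and without it the difference was -0.01. Adamts7, which cuts cartilage oligomeric matrix protein, was at -0.07 ± 0.152, and Adamts14, a procollagen N-propeptidase, at 0.02 ± 0.103. A dimmer probe set of Adamts14 had a difference of -0.08.

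Adamts17 and Adamts16 had the smallest standard errors of the Adamts genes. Adamts17 was at 4.63, 4.63, 4.64 and 4.58 with PDGF-CC and at 4.63, 4.82 and 4.63 with PBS, a difference of -0.08 ± 0.0629 with PBS array 2 standing high. Adamts16 was at 4.89, 4.89, 5.09 and 4.93 with PDGF-CC and at 4.89 in each PBS array. The difference was 0.06 ± 0.0633, and 0.01 without PDGF-CC array 3.

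The 14 members under the limit were Mmp1a, Mmp1b, Mmp3, Mmp13, Mmp16, Mmp20, Mmp21, Mmp27, Adamts3, Adamts12, Adamts13, Adamts18, Adamts19 and Adamts20. Their single values ran from 2.02 to 4.30, their differences from -0.20 to 0.12, and 0 of them separated the groups. Adamts13, the protease that cuts von Willebrand factor, was at 4.06, 4.06, 4.01 and 3.85 with PDGF-CC and at 4.01 in each PBS array. A level under the limit does not show that a gene is silent.

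Genes that act on these proteases were read from lists. In the list of the plasmin system and other activators of Mmp precursors, 10 of 12 genes with a probe set were tested, with 8 negative, 2 positive, a median of -0.03 and 0 past the adjusted threshold. Plau, which encodes urokinase, was at 7.66, 7.53, 7.52 and 7.56 with PDGF-CC and at 7.33, 7.07 and 7.27 with PBS. All PDGF-CC values of Plau lay above all PBS values, with a difference of 0.34 ± 0.0752 (adjusted p = 0.754 by limma). Plat, which encodes tissue plasminogen activator, lay the other way, at 9.57, 9.85, 9.83 and 9.52 with PDGF-CC against 9.90, 10.15 and 9.92 with PBS. Its difference was -0.29 ± 0.111, and that of the urokinase receptor gene Plaur, with overlapping groups, -0.28 ± 0.136 (adjusted p = 0.769 for both by limma).

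Among inhibitors other than Timp genes and clearance receptors, 11 of 13 were tested, 7 negative and 4 positive, with a median of -0.08. A2m, which encodes alpha-2-macroglobulin, a trap for proteases of all classes, was at 6.24, 6.27, 5.97 and 6.16 with PDGF-CC and at 6.90, 7.43 and 6.40 with PBS. All PDGF-CC arrays were below all PBS arrays, and the difference of -0.75 ± 0.224 (adjusted p = 0.769 by limma) was larger than that of any member. Arrays numbered 1 to 4 gave -0.91 for A2m, and the later ones gave -0.33. The scavenger receptor gene Lrp1 and the proteoglycan gene Papln had differences of 0.16 ± 0.124 and -0.24 ± 0.147, with overlapping groups.

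Choroid plexus markers had 7 of 8 negative differences and a median of -0.71, with 0 past the adjusted threshold. At an unadjusted p under 0.05, 7 of the 8 were lower, where 3.41% of all tested probe sets were. These values stand here beside that of A2m. The mean level of the 8 listed markers ran from 6.32 to 7.16 in PDGF-CC arrays and from 7.23 to 7.58 in PBS arrays. Perivascular fibroblast markers ran from 5.76 to 5.85 and from 5.84 to 6.01, pericyte markers from 8.80 to 9.25 and from 9.10 to 9.31. Differences were 5 negative and 2 positive for fibroblast markers (median -0.07) and 8 negative and 1 positive for pericyte markers (median -0.21). Smooth muscle markers had 6 positive and 0 negative (median 0.17), and microglial markers 6 positive and 1 negative (median 0.27). Each of these lists had 0 past the adjusted threshold. Microglial markers ran from 9.88 to 9.92 in PDGF-CC arrays and were at 9.83, 9.28 and 9.79 in PBS arrays 1 to 3, with PBS array 2 standing low. The part of these cells in the values of the proteases and of A2m was not tested.

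Relatives and substrates gave 0 genes past the adjusted threshold in each list. Of the membrane-anchored Adam genes 10 of 12 were tested, 5 negative and 5 positive, with a median of -0.00073. Adam19 was at 0.44 ± 0.173, Adam8 at -0.36 ± 0.192 and the sheddase gene Adam17 at 0.10 ± 0.0609, each with overlapping groups. For Adam19, arrays numbered 1 to 4 gave 0.78 and the later ones gave 0.02. The Adamts-like proteins, which lack the protease domain, had 4 of 5 tested genes positive and a median of 0.12. Thsd4 was at 0.19 ± 0.0689, with overlapping groups.

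Of the substrates, 13 of 15 were tested, 6 negative and 7 positive. The proteoglycan genes Dcn (decorin) and Vcan (versican) were at -0.47 ± 0.142 and -0.24 ± 0.131, and Hspg2, which encodes perlecan, at -0.12 ± 0.0947. Cathepsins, lysosomal proteases that can also cut matrix, had 5 of 7 genes positive, a median of 0.10, and Ctsl at 0.16 ± 0.0749. All adjusted p in these lists were 0.769 or above by limma.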

How the data were processed

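The authors deposited 1 table of log2 expression values, with a row for each of 33793 probe sets and a column for each of the 7 arrays. The submitters' processing notes name RMA, limma and the program Affymetrix Expression Console, with no version. The genome build is not given in the sources used here. The quantile step of RMA makes the arrays' distributions alike, which would remove an overall difference in RNA. Arrays correlated at 0.982 to 0.992 over the tested probe sets, whose residual SD had a median of 0.128.

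Names came from the platform annotation, in which 23521 probe sets had 1 symbol, 1814 several and 8458 none. No gene was named from a probe set with several. Of 159 list entries, 153 had a probe set of their own. The difference between PDGF-CC and PBS came from lmFit and eBayes (limma 3.58.1, R 4.3.3) without covariates, 2-sided, with Benjamini-Hochberg adjustment over 17734 probe sets. The fit was tested on simulated data. The members and lists were chosen with earlier results of these data known. Values per array are given for the Timp genes, for Mmp2, Mmp3, Mmp8, Mmp9, Mmp14, Adamts1, Adamts4, Adamts5, Adamts9 and Adamts13, and for the 4 Mmp and 6 Adamts genes with the smallest p. A tested member without overlap of the groups and with a difference of at least 0.4 would have been added, and there was none. Up to 3 genes with the smallest p were named from each pathway list. Promoters were from RefSeq. Alternatives were other filters, priors, normalizations, array weights, blocks, a covariate, left-out arrays and the mean over a gene's probe sets. Matplotlib 3.10.9 made the figures.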

Additional observations from a re-analysis of the deposited data

Results flagged for a closer look

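In 7 of the 30 tested members, 1 of the 4 PDGF-CC arrays stood apart from the other 3 by a gap above Dixon's 95% critical value. Of the 17463 tested probe sets whose PDGF-CC values were not all equal, 20.3% had such an array, so the members' count lies near the background. Chance flags about 1 in 20 groups of values without ties. Array 1 was highest in Adamts10 (6.89), Adamts7 (5.01) and Mmp28 (5.90) and lowest in Mmp9 (3.90). Array 4 was lowest in Timp1 (6.10) and Adamts17 (4.58), and array 3 was highest in Timp4 (5.88). In Adamts7 and Mmp28 the other 3 arrays held equal values, so that the gap was the whole range. PBS, with 3 arrays, was not examined in this way.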

How the results depend on the processing

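Of the members, 0 passed the adjusted threshold under any alternative, and the lowest adjusted p of a member was 0.561, for Mmp11. Over all probe sets the count of 0 became 3 with a filter at percentile 50, 3 with a trended, robust prior, 3 with arrays centred on their median, 1 with repeated quantile normalization, and 0 to 1 with 1 array left out (1 without PDGF-CC array 3). The Mmp median of -0.0043 became 0.04 with that filter. It was 0.02 without a filter, 0.02 with the early and late description numbers as a block, 0.02 with the mean over a gene's probe sets, and -0.04 to 0.01 with 1 array left out. With 1 array left out the Adamts median ran from -0.09 to 0.03 and the Timp median from -0.07 to 0.02. The causes of these shifts were not tested.

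Of the 30 tested members, 15 kept their sign under every alternative. The other 15 had small differences that changed sign in 40 of 496 values, none past the threshold. Array weights gave 0.01 for Adamts8, -0.06 for Mmp14 and 0.00077 for Mmp25. The description number as a covariate gave -0.03 for Mmp14 and 0.02 for Mmp25, and as a block of early and late numbers 0.01 for Adamts6 and 0.02 for Mmp23. The mean over probe sets gave -0.03 for Adamts14 and 0.05 for Mmp7, and repeated quantile normalization -0.01 for Mmp17. With 1 array left out, the ranges of those that changed sign were -0.01 to 0.27 for Adamts10, -0.04 to 0.10 for Adamts14, -0.19 to 0.07 for Adamts6, -0.17 to 0.11 for Adamts7, -0.08 to 0.03 for Adamts8 and -0.33 to 0.06 for Adamts9. Among Mmp genes they were -0.17 to 0.01 for Mmp10, -0.01 to 0.11 for Mmp12, -0.04 to 0.16 for Mmp14, -0.08 to 0.09 for Mmp17, -0.05 to 0.11 for Mmp2, -0.14 to 0.08 for Mmp23, -0.05 to 0.18 for Mmp24, -0.08 to 0.07 for Mmp25 and -0.09 to 0.01 for Mmp7.

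Arrays with the same replicate number in the titles had deviations from their group means that correlated at 0.163, 0.107 and 0.084. Arrays with different numbers were not correlated for reference, so these values cannot settle whether the arrays were paired. The main fit did not take the number as a pairing. With the replicate block, to which PDGF-CC array 4 adds nothing, 0 members and 0 probe sets passed. That block gave medians of 0.01 for Mmp, -0.03 for Adamts and -0.05 for Timp genes, and changed the sign of Adamts6 (0.01), Mmp2 (-0.03), Mmp23 (0.08) and Mmp7 (0.01). A member near the brightness limit has little signal over background, and those below it were left out of the main fit. They were fitted in the run with no filter on brightness, in which 0 members passed.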
